A study of Mus musculus with 6 samples.

Results

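The loci described here are those of Zfpm2, which encodes FOG2 (Friend of GATA 2), and of Gata4 and Gata6, which encode GATA factors that FOG2 binds in the heart. A listed feature belonged to a locus if it overlapped the body of one of these genes on GENCODE M21 (mm10 build). It also belonged if it overlapped no protein-coding gene and had one of the 3 genes as the nearest protein-coding gene start, within 100 kb. By this rule 30 of the 34518 listed features were members, with 16 at Zfpm2, 6 at Gata4 and 8 at Gata6. None of the 30 carries a gene symbol in the table, so that each is given by its assembler identifier and its position.

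The libraries came from the left atria of adult mice of the outbred CD1 stock, with 3 libraries of FOG2 overexpression animals (FOG2_OE, in the protocol DTG) and 3 of wild type animals (WT, in the protocol NTG). Both groups had been reared without doxycycline for 1 week. The labels give neither the promoter that drives the overexpression nor the cell types in which it acts, and they do not say whether any library pooled several animals. RNA was depleted of ribosomal and of polyadenylated RNA, so that the libraries were made for transcripts without a poly(A) tail and not to measure the mRNA of the genes.

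FOG2 is a zinc finger protein that is not known to bind DNA by itself. It binds the amino-terminal zinc finger of a GATA factor and, depending on the gene, lowers or raises transcription there, in part by bringing in the NuRD histone deacetylase complex and CtBP corepressors. GATA4 and GATA6 bind GATA motifs in regulatory DNA and drive contractile, ion channel and natriuretic peptide genes in heart muscle, often with TBX5 and NKX2-5. The series asked what raised FOG2 does to the atrial network shared by TBX5 and GATA4, and the libraries here address its noncoding transcripts.

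Levels are given as fitted CPM (counts scaled to the effective library), whose size was 72454816 to 84896198 reads in FOG2_OE and 71171501 to 82240917 reads in WT. The sample columns of the table hold fitted values that differ within a group only by library size. Each group therefore has 1 level per feature, and neither a spread between libraries nor an overlap of the groups can be shown. The log2 fold change (FOG2_OE over WT) and the adjusted p are those of the authors' deposited table. The standard error beside them (implied SE) was solved from its likelihood ratio. A feature is called higher or lower where that adjusted p, taken over all 34518 features, is under 0.05. The labels do not say how the 3 libraries of a group relate, so that p-values weigh a difference only against the modelled spread between these libraries. Scarce features are common here, since 76.3% of all features and 15 of the 30 members lay under 20 fitted counts per library on average.

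At the 3 loci together, the authors' deposited table called 2 features higher and 11 lower and left 17 uncalled. Among all features 1.16% were called higher and 4.65% lower. Among the 29770 features that the same rule links to any protein-coding gene, the shares were 1.12% and 3.92%. The median log2 fold change of the 30 was -1.33 by the authors' deposited table, against -0.21 for all features, and 24 of the 30 lay below 0. By locus the median was -1.86 at Zfpm2, -0.61 at Gata4 and -0.45 at Gata6, by the same table. Set against that median of all features, each log2 change given here is 0.21 higher, and with the median ratio so centred at 1 the calls at the loci were 2 higher and 8 lower. Both higher calls lay inside a gene body, 1 in Zfpm2 and 1 in Gata4. All 11 lower calls lay outside the gene bodies, at 7.22 to 93.2 kb from the gene start. Most of the 30 members lay outside, as the bodies held 3 features at Zfpm2, 3 at Gata4 and 1 at Gata6. The shares of calls inside and outside gene bodies among all features are not given here, so the split describes single features only. Of 8798 genes with a linked feature, 760 (8.64%) had a called one and 20 (0.227%) had calls in both directions, Zfpm2 and Gata4 among them. The median gene had 2 linked features, against 16 at Zfpm2 and 6 at Gata4, so these shares are no like comparison for them. Zfpm2 is also the gene that was raised by design. At least 7 lower calls, the number at Zfpm2, were held by 27 genes. Neighbouring features may be pieces of 1 transcript, so that the counts are not counts of separate events. When the likelihood ratios were read against an F distribution of 10 residual degrees of freedom, MSTRG.29831 and MSTRG.29822, both at Zfpm2, were the members still called. With 4 degrees of freedom none was (F test), while 2 members lay higher and 13 lower with p left unadjusted (under 0.05). By that F test 529 of all 34518 features lay higher and 1927 lower with p left unadjusted.

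**Figure D1:**
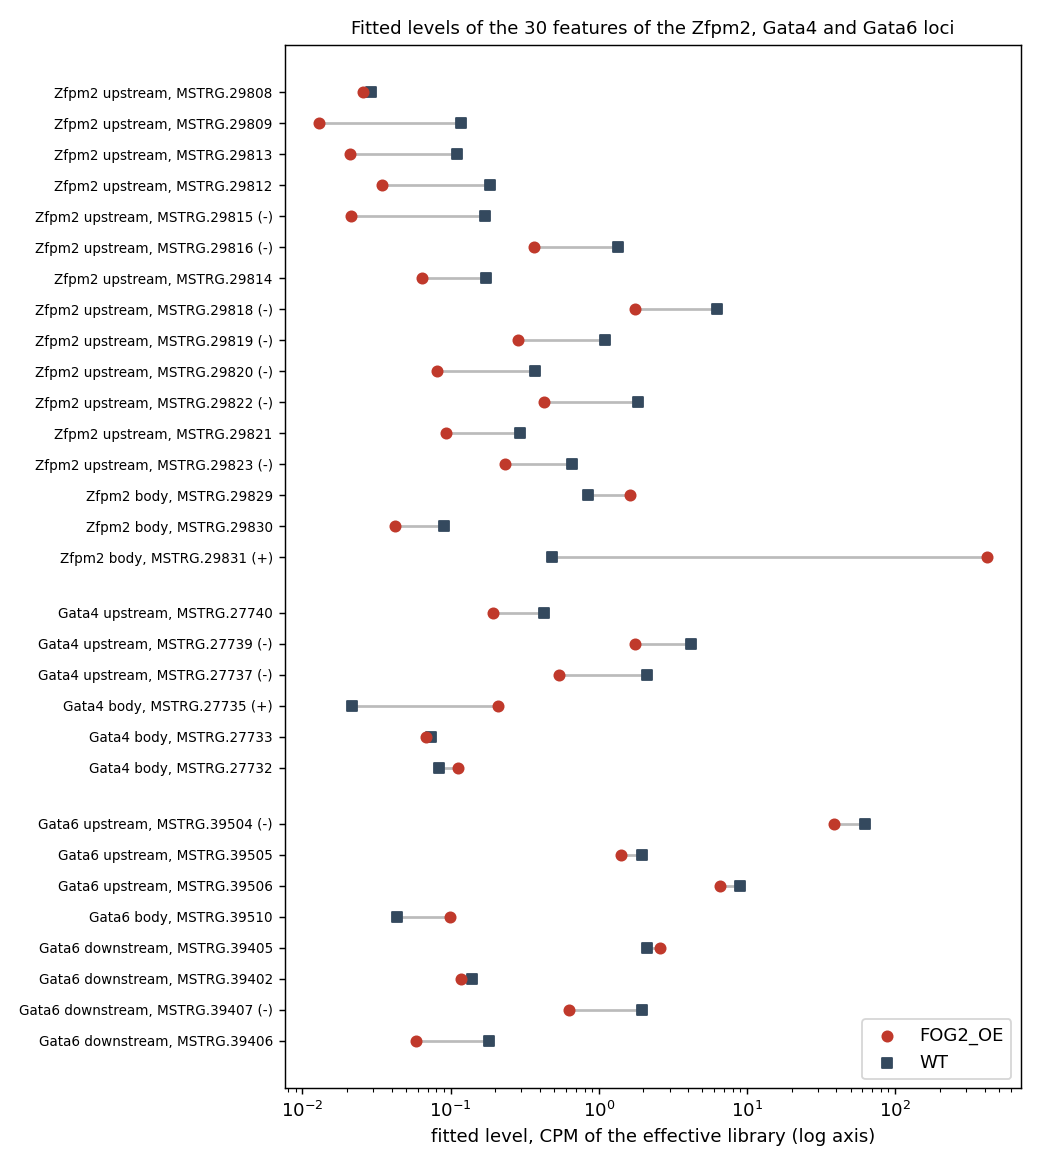
Fitted level of each of the 30 features in CPM of the effective library (log axis), with FOG2_OE as red circles and WT as blue squares, 1 value per group, joined by a grey line. The signs (+) and (-) mark features called higher and lower. MSTRG.29831 inside Zfpm2 stands far to the right in FOG2_OE at 416 CPM, while the 13 features upstream of Zfpm2 all have the FOG2_OE circle left of the WT square.

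Zfpm2 is the gene raised in this model, and its feature MSTRG.29831 checks the group labels, though fitted values cannot check single libraries. It spans chromosome 15 from 40752896 to 41103616 within the gene, which lies on the plus strand from 40655035 to 41104592. Its level was 416 CPM in FOG2_OE against 0.484 CPM in WT. By level it ranked 12th of all features in FOG2_OE and 5330th in WT. In the authors' deposited table it had a log2 fold change of 9.74 with implied SE 0.31 (adjusted p = 2.4e-117), which ranked 3rd of all fold changes, and its likelihood ratio ranked 2nd. The feature held 0.794% of the summed CPM of all listed features in FOG2_OE and 0.00109% in WT.

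The feature begins at an annotated exon boundary. Its first base is the first base of exon 2 of Zfpm2-201, a transcript of 8 exons. Its last base, 41103616, lies in exon 8, 40 bases past the last base of the stop codon at 41103576 and 976 bases before the exon ends. It thus holds 6 exons whole, leaves out exon 1 and most of the 3′ untranslated region, and covers 3456 bases of Zfpm2-201 exons. If all of its level fell on these exon bases, it would be 120 CPM per kb of them in FOG2_OE against 0.140 CPM in WT. Per kb of the whole listed span it was 1.19 CPM in FOG2_OE against 0.00138 CPM in WT. How the reads were shared between exons and introns was not tested. The table lists the feature on the minus strand, opposite to Zfpm2, and it also overlaps the annotated loci Gm49524, Gm49525 and Gm49526.

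Since the kit named in the labels keeps no strand, reads of the Zfpm2 mRNA and of an antisense RNA cannot be told apart here. Whether the reads came from an introduced copy, from the gene itself or from an antisense transcript was not tested. An end that falls exactly on an exon end of a gene on the other strand was found in 163 of the 11603 features that overlap a protein-coding gene (1.40%), of which 3 were called higher and 3 lower. A span this long is also rare, since 12 features reach over 100 kb and 2 over 300 kb, against a median span of 238 bases.

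The other features inside Zfpm2 stood far below MSTRG.29831 in FOG2_OE and were not called. MSTRG.29829 (chromosome 15, 40655239 to 40656102) overlaps exon 1 and begins 0.204 kb into the gene, nearest of all members to a gene start. It stood at 1.62 CPM in FOG2_OE against 0.844 CPM in WT and was not called (log2 fold change 0.94 with implied SE 0.41, and adjusted p = 0.191, by the authors' deposited table). MSTRG.29830 (40751629 to 40751731) lies in the intron just before exon 2, at 0.042 CPM in FOG2_OE against 0.090 CPM in WT. The authors' deposited table gave it a log2 fold change of -1.07 with implied SE 0.75 (adjusted p = 0.482). Exon 1 and the bases before exon 2 thus gave no call, next to the feature that begins at exon 2.

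**Figure D2:**
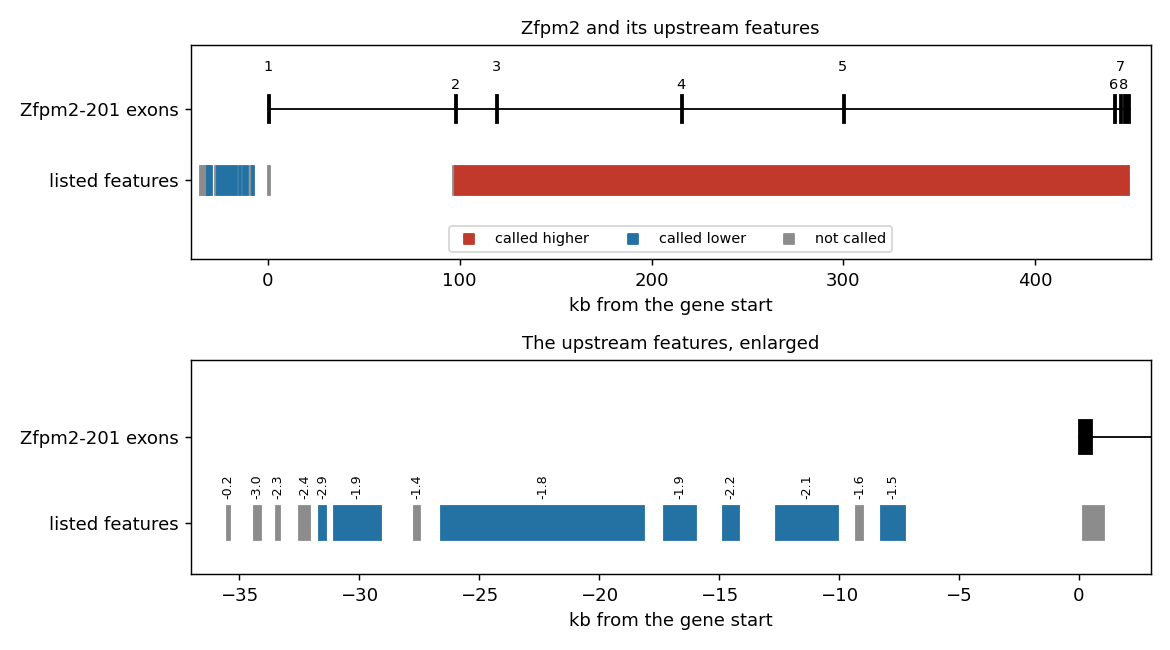
Map of the Zfpm2 locus, with position in kb from the gene start, exons of Zfpm2-201 as black boxes with their numbers, and listed features as boxes coloured by call (red higher, blue lower, grey not called). Positions are to scale, but the narrowest boxes were widened to a minimum width so that they can be seen. The upper panel shows the higher feature running from exon 2 into exon 8, and the lower panel enlarges the upstream features, with the log2 fold change of each (FOG2_OE over WT, authors' deposited table) written above it.

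Upstream of Zfpm2 the direction was the opposite. A row of 13 features, all listed on the minus strand, lay on chromosome 15 from 40619533 to 40647812, an interval of 28.3 kb that ends 7.22 kb before the gene start. Gaps between neighbours were 0.322 to 1.53 kb, with a median of 0.800 kb. Their summed level was 3.41 CPM in FOG2_OE against 12.7 CPM in WT, a level 3.71-fold lower in FOG2_OE. The authors' deposited table gave all 13 negative log2 fold changes (median -1.95, range -3.03 to -0.17), and 7 were called lower. Less of such RNA per cell and fewer cells that make it cannot be told apart in tissue RNA.

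The longest and most abundant of the row was MSTRG.29818 (40628449 to 40636927), which held 51.2% of the summed level in FOG2_OE and 49.6% in WT. It stood at 1.75 CPM in FOG2_OE against 6.27 CPM in WT. By the authors' deposited table its log2 change was -1.84, with implied SE 0.37 and adjusted p = 0.00011. MSTRG.29822 (40642417 to 40644995), nearer to the gene, stood at 0.426 CPM in FOG2_OE against 1.84 CPM in WT. The authors' deposited table gave it the smallest adjusted p of the row, 3.1e-05, with a log2 fold change of -2.11 (implied SE 0.40). The 95% intervals of the log2 fold changes of these features overlapped.

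The lower calls ran through most of the row. MSTRG.29816 (40623984 to 40625941) stood at 0.367 CPM in FOG2_OE against 1.34 CPM in WT, a log2 change of -1.87 by the authors' deposited table. MSTRG.29819 (40637738 to 40639087) stood at 0.284 CPM in FOG2_OE against 1.10 CPM in WT, a log2 change of -1.95 by the authors' deposited table. MSTRG.29820 (40640231 to 40640887) stood at 0.0806 CPM in FOG2_OE against 0.370 CPM in WT, a log2 change of -2.17 by the authors' deposited table. These 3 had implied SEs of 0.42, 0.43 and 0.55 and adjusted p-values of 0.00078, 0.00036 and 0.0020 there.

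The row held 2 more lower calls. MSTRG.29815 (40623374 to 40623661) stood at 0.0213 CPM in FOG2_OE against 0.170 CPM in WT, which is 5.05 fitted counts over all FOG2_OE libraries against 39.3 over all WT libraries. The change was -2.90 on the log2 scale by the authors' deposited table (implied SE 0.90 and adjusted p = 0.012). MSTRG.29823 (40646803 to 40647812), the feature of the row closest to Zfpm2, stood at 0.234 CPM in FOG2_OE against 0.659 CPM in WT. By the authors' deposited table its log2 change was -1.49, with implied SE 0.44 and adjusted p = 0.019. With the median ratio of all features centred at 1 it was not called (adjusted p = 0.065).

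The 6 features of the row that were not called were short and scarce, at 0.0129 to 0.0927 CPM in FOG2_OE and 0.0288 to 0.292 CPM in WT. MSTRG.29821 came nearest to the threshold (adjusted p = 0.0504 by the authors' deposited table). At the far end MSTRG.29808 had a log2 fold change of -0.17 by the authors' deposited table (implied SE 1.29), which turned to 0.05 when the median ratio was centred at 1. The log2 ratio of the summed level, -1.89, lay inside the 95% interval of each of the 13. Without MSTRG.29831 the other 15 features of the locus summed to 5.07 CPM in FOG2_OE against 13.6 CPM in WT.

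Gata4, on the minus strand of chromosome 14 from 63198922 to 63271692, encodes a GATA factor that FOG2 binds and that heart development and adult heart muscle need. MSTRG.27735 (63253657 to 63253965) lies in an intron of the isoforms that start further upstream, 8386 bases upstream of the Gata4-201 start, and is listed on the other strand. It stood at 0.207 CPM in FOG2_OE against 0.0216 CPM in WT, or 49.2 fitted counts over all FOG2_OE libraries and 5.01 over all WT libraries. It was called higher, with a log2 fold change of 3.17 with implied SE 0.83 (adjusted p = 0.00078) by the authors' deposited table.

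The Gata4 exons themselves gave little. MSTRG.27732 (63240574 to 63241136) lies wholly in exon 2 and stood at 0.111 CPM in FOG2_OE against 0.0828 CPM in WT (log2 fold change 0.42 with implied SE 0.67, and adjusted p = 0.816, by the authors' deposited table). MSTRG.27733 (63245510 to 63245639), 239 bases upstream of the Gata4-201 start, stood at 0.0685 CPM in FOG2_OE against 0.0733 CPM in WT. Its log2 fold change of -0.10 by the authors' deposited table (implied SE 0.82, adjusted p = 0.970) turned to 0.12 with the median ratio centred at 1. The 3 body features summed to 0.387 CPM in FOG2_OE against 0.178 CPM in WT, and MSTRG.27735 alone carried the call.

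Beyond the 5′ end of Gata4, 3 features lie within the annotated noncoding genes Gm49390 and Gm5463 and summed to 2.50 CPM in FOG2_OE against 6.69 CPM in WT, 2.68-fold lower in FOG2_OE. MSTRG.27737 (63323941 to 63324516), in an intron of Gm49390 and 52.2 kb from the Gata4 start, stood at 0.542 CPM in FOG2_OE against 2.10 CPM in WT. It was called lower by the authors' deposited table (log2 fold change -1.95, implied SE 0.52, adjusted p = 0.0079). MSTRG.27739 (63334051 to 63337018), which overlaps a Gm49390 exon 62.4 kb away, is the most abundant of the locus, at 1.76 CPM in FOG2_OE against 4.17 CPM in WT.

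MSTRG.27739 was called lower by the authors' deposited table (log2 fold change -1.24, implied SE 0.39, adjusted p = 0.036), and the call was lost with the median ratio centred at 1 (adjusted p = 0.121). The third, MSTRG.27740 (63337349 to 63338165), in a Gm5463 intron, stood at 0.194 CPM in FOG2_OE against 0.426 CPM in WT. It was not called (log2 fold change -1.13 with implied SE 0.55, and adjusted p = 0.266, by the authors' deposited table). At Gata4, then, the higher call lay in the gene and the lower calls more than 50 kb outside it.

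**Figure D3:**
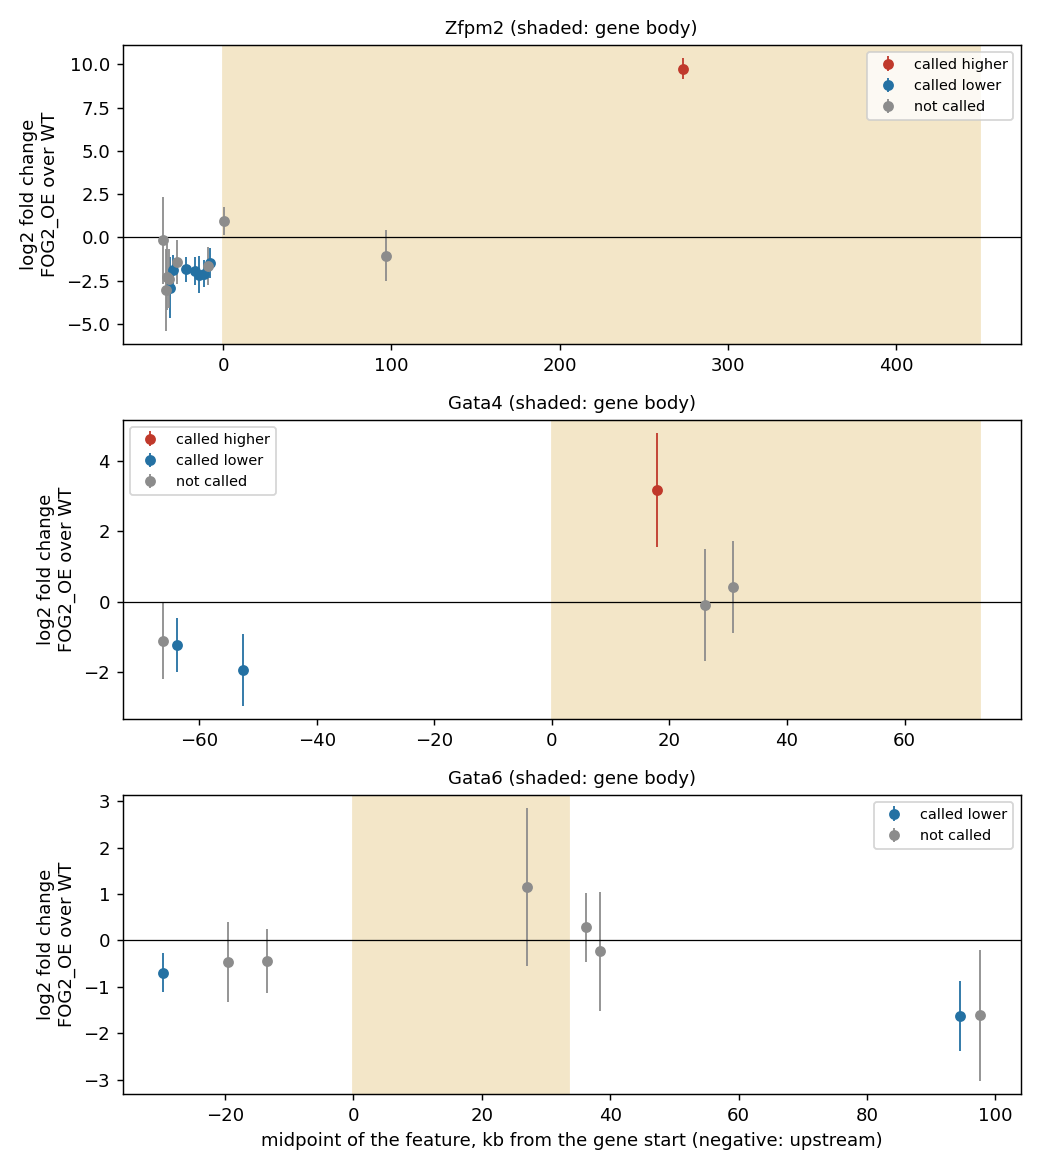
Log2 fold change of each feature (FOG2_OE over WT, authors' deposited table) against the distance of its midpoint from the gene start in kb, with negative distances upstream, 1 panel per gene. Bars are 95% intervals from the implied SE, colours mark the call and shading marks the gene body. The higher calls at 9.74 (Zfpm2) and 3.17 (Gata4) lie in the shaded bodies, and all lower calls lie outside them.

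Gata6, on the plus strand of chromosome 18 from 11052064 to 11085635, encodes the other GATA factor of heart muscle and shares many targets with GATA4. Its most abundant member is MSTRG.39504 (11013698 to 11031331), 20.7 kb upstream in an intron of the noncoding gene 1010001N08Rik. It stood at 38.5 CPM in FOG2_OE against 62.2 CPM in WT, ranked 67th of all features by level in FOG2_OE and 50th in WT. The authors' deposited table called it lower, with a log2 fold change of -0.69 with implied SE 0.21 (adjusted p = 0.025). That call was lost with the median ratio centred at 1 (adjusted p = 0.209) and with the dispersion of features of like abundance (adjusted p = 0.153).

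The other 2 features in introns of 1010001N08Rik were not called. MSTRG.39505 (11031727 to 11033340) stood at 1.42 CPM in FOG2_OE against 1.95 CPM in WT (log2 fold change -0.46 with implied SE 0.44, and adjusted p = 0.655, by the authors' deposited table). MSTRG.39506 (11033660 to 11043511), the nearest to the Gata6 start at 8.55 kb, stood at 6.54 CPM in FOG2_OE against 8.90 CPM in WT (log2 fold change -0.45 with implied SE 0.36, and adjusted p = 0.571, by the authors' deposited table). The 3 summed to 46.5 CPM in FOG2_OE against 73.1 CPM in WT.

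Inside Gata6 a single feature was listed, MSTRG.39510 (11079025 to 11079150), in an intron. It stood at 0.0989 CPM in FOG2_OE against 0.0435 CPM in WT and was not called (log2 fold change 1.15 with implied SE 0.86, and adjusted p = 0.521, by the authors' deposited table). No Gata6 exon held a member. Downstream, MSTRG.39407 (11145271 to 11147710), 93.2 kb from the gene start, was called lower, at 0.630 CPM in FOG2_OE against 1.95 CPM in WT. The change was -1.63 on the log2 scale by the authors' deposited table (implied SE 0.38 and adjusted p = 0.0013).

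Next to it MSTRG.39406, at 97.4 kb, had nearly the same log2 fold change, -1.61, by the authors' deposited table (implied SE 0.72, adjusted p = 0.186), at 0.0581 CPM in FOG2_OE against 0.180 CPM in WT. Just past the gene end MSTRG.39405 (11086596 to 11089975) stood at 2.57 CPM in FOG2_OE against 2.11 CPM in WT, and MSTRG.39402 at 0.118 CPM in FOG2_OE against 0.139 CPM in WT. Neither was called, with log2 fold changes of 0.29 and -0.23 and implied SEs of 0.38 and 0.65 by the authors' deposited table. The lower call downstream of Gata6 thus stood 54.6 kb from these neighbours.

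The rule's limit of 100 kb cuts through a run of features beyond Gata6. Just inside it lies MSTRG.39406 at 97.4 kb, and just outside it lies MSTRG.39408 at 101.7 kb, with 0.0207 CPM in FOG2_OE against 0.0508 CPM in WT. The 7 listed features from 101.7 to 132.4 kb had negative log2 fold changes throughout the authors' deposited table. Of these MSTRG.39413 was called lower (adjusted p = 0.025 by the authors' deposited table). It was listed at 0 in FOG2_OE and at 0.0522 CPM in WT, at least 4.12-fold lower with a floor of 3 counts over the FOG2_OE group.

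**Figure D4:**
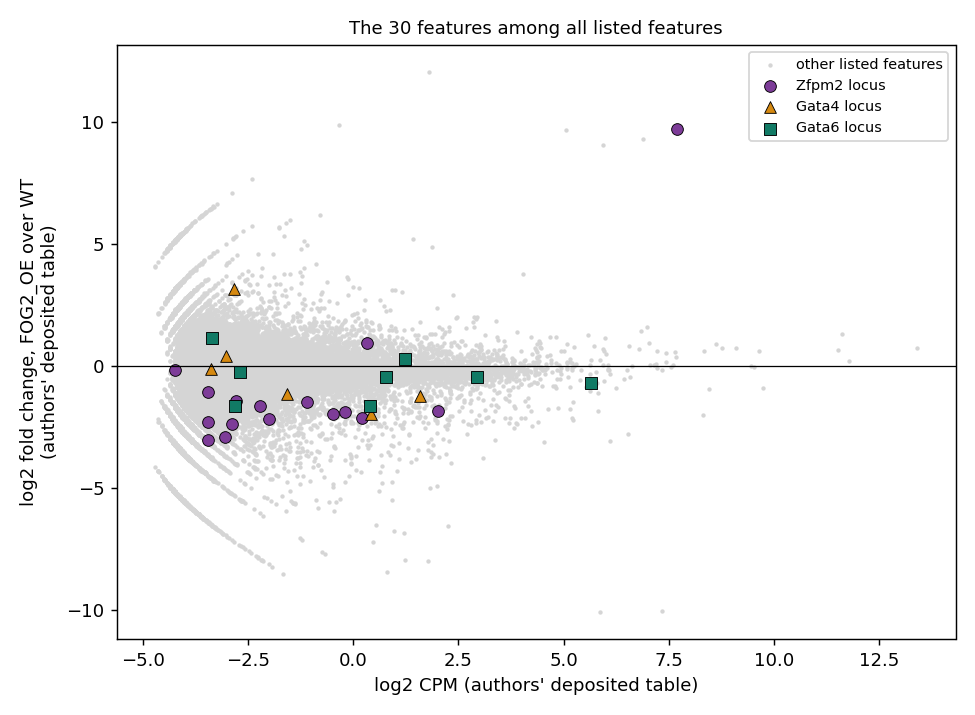
Log2 fold change (FOG2_OE over WT) against log2 CPM for all 34518 features, both from the authors' deposited table, in grey, with the members of the Zfpm2 (purple circles), Gata4 (orange triangles) and Gata6 (green squares) loci on top. The Zfpm2 feature at 9.74 stands apart at the upper right, and most other members lie below 0.

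Genes that act with FOG2 and the GATA factors were read by the same rule. In the FOG and GATA family beside the 3 genes, Gata2 and Gata5 had features and Zfpm1, Gata1 and Gata3 had none. None of their 34 features was called by the authors' deposited table (likelihood ratio test), where 0 stood higher and 3 lower with p left unadjusted (under 0.05). The median log2 fold change was 0.34. Their summed level was 12.6 CPM in FOG2_OE against 10.7 CPM in WT. Of the corepressor genes through which FOG2 can silence, which code for NuRD and CtBP subunits and the FOG2 partner Nr2f2, 11 of 16 had features. Of the 79 features, 56 lay at Nr2f2, and none of the 79 was called by the authors' deposited table (likelihood ratio test), with 4 higher and 0 lower where the p was left unadjusted (under 0.05), and a median of -0.20. Of all 34518 features, 1.16% were called higher and 4.65% lower by that test. With p left unadjusted (under 0.05), 1561 of them stood higher and 4319 lower. No test compared either list with these shares, so that 0 calls do not show the lists to be unchanged.

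Among 19 cardiac transcription factor genes that work with GATA4, 15 had features, 73 in all. The authors' deposited table called 1 higher and 4 lower, with a median log2 fold change of -0.05. These shares lie near the 1.16% and 4.65% of all features, so that the calls named next describe single features and not the list. Those with the smallest adjusted p were at Hand2, Myocd and Tbx20. MSTRG.80406, 29.2 kb from the start of Hand2 (a basic helix-loop-helix factor of the embryonic right ventricle) and within the noncoding Hand2os1, stood at 0.161 CPM in FOG2_OE and at 0 in WT. Its level was at least 12.4-fold higher in FOG2_OE, with a floor of 3 counts over the WT group (adjusted p = 0.00049 by the authors' deposited table).

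MSTRG.13995, inside Myocd (a coactivator of serum response factor), was listed at 0 in FOG2_OE and at 0.0731 CPM in WT, at least 5.78-fold lower with a floor of 3 counts over the FOG2_OE group (adjusted p = 0.0048 by the authors' deposited table). MSTRG.83841, 3.36 kb from Tbx20 (a T-box factor of heart muscle), stood at 0.0378 CPM in FOG2_OE against 0.172 CPM in WT. By the authors' deposited table its log2 change was -2.14, with implied SE 0.68 and adjusted p = 0.021. The 6 features of Tbx5 and the 14 of Nkx2-5 held no call, with smallest adjusted p-values of 0.547 and 0.307 by the authors' deposited table. With the median ratio centred at 1, the list had 1 higher and 2 lower calls.

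Of 24 genes known as GATA4 targets in heart, 19 had features. Their 158 features held 1 higher and 13 lower calls by the authors' deposited table, with a median log2 fold change of -0.12, against 1.16% and 4.65% of all features. At Nppb, Atp2a2 and Ryr2 lay 10 of the lower calls, and the higher one lay at Ryr2. MSTRG.62122 (chromosome 4, 147987491 to 147988220), 1.70 kb from the start of the natriuretic peptide gene Nppb, stood at 0.286 CPM in FOG2_OE against 3.96 CPM in WT. By the authors' deposited table its log2 change was -3.78, with implied SE 0.44 and adjusted p = 4.2e-13. MSTRG.62113 (147988637 to 147989168), next to it, stood at 0.0209 CPM in FOG2_OE against 0.317 CPM in WT. The change there was -3.83 on the log2 scale by the authors' deposited table (implied SE 0.86 and adjusted p = 6.0e-05).

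MSTRG.66593 (chromosome 5, 122516610 to 122521206), 14.4 kb from the start of Atp2a2, the gene of the calcium pump of the sarcoplasmic reticulum, stood at 1.11 CPM in FOG2_OE against 4.03 CPM in WT. By the authors' deposited table its log2 change was -1.86, with implied SE 0.38 and adjusted p = 0.00017. With the median ratio centred at 1 the list had 3 higher and 9 lower calls.

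Features at markers of cell types of the heart stood as follows beside these results. Features of atrial muscle genes numbered 52, at 7 of 8 genes, with a summed level of 17.7 CPM in FOG2_OE against 43.5 CPM in WT. The authors' deposited table called 0 of them higher and 16 lower, against 1.16% and 4.65% of all features. Of these lower calls 9 lay at Kcnj3, 3 at Myl7, 3 at Sln and 1 at Dkk3. The 22 features of Kcna5, the 3 of Myl4 and the 2 of Nppa held no call. With p left unadjusted (under 0.05) the 52 features stood at 7 higher and 24 lower, and all 34518 features at 1561 higher and 4319 lower. These unadjusted counts of all features also stand beside those of the marker lists below. With the median ratio centred at 1 the calls of the 52 were 1 higher and 12 lower, where all 34518 features had 560 higher and 1199 lower. Bmp10 was the atrial marker without a listed feature, and Nppa and Kcna5 also stand among the GATA4 targets. Ventricular muscle genes had 10 features at Myl3 and Myh7, none called by the authors' deposited table (0 with p left unadjusted), with 1.08 CPM in FOG2_OE against 1.22 CPM in WT, and Myl2, Irx4 and Hey2 had no listed feature. Fibroblast genes (7 of 8 with features) had 36 features, none called by the authors' deposited table, 6 of them higher and 0 lower with p left unadjusted (under 0.05), with 14.3 CPM in FOG2_OE against 14.2 CPM in WT.

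The endothelial genes (5 of 7 with features) had 19 features with 0 calls by the authors' deposited table and 2 lower at an unadjusted p under 0.05, at 3.76 CPM in FOG2_OE against 3.11 CPM in WT. Immune genes (5 features, 4 of 7 genes), epicardial genes (4 features, 2 of 4 genes) and nerve and glial genes (4 features, 2 of 4 genes) had 0 calls by the authors' deposited table, and 0 with p left unadjusted. Their sums were 1.38, 6.46 and 1.14 CPM in FOG2_OE, against 1.94, 5.94 and 1.23 CPM in WT. Smooth muscle genes had 5 features at 4 of 4 genes, with 0.573 CPM in FOG2_OE against 0.406 CPM in WT. The call among them, MSTRG.43342 in Acta2, was higher by the authors' deposited table (adjusted p = 1.2e-06), with 52.5 fitted counts over the FOG2_OE libraries and 1.004 over the WT libraries. The part of cell makeup in the results at the 3 loci was not tested.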

How the data were processed

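Members and gene lists were chosen with earlier results of these data known. The libraries were made with a TruSeq RNA v2 kit after ribosomal and poly(A) depletion, per the labels' protocols. The submitters' processing notes name the mm10 build and, without roles, deepTools, edgeR, HTSeq 0.6.0 and STAR. The authors' deposited table gives for each feature p-values, raw and adjusted, a score (the likelihood ratio), a log2 fold change and a log2 CPM. It also has 6 sample columns, a signal that the authors deposited beside these. Those columns are constant multiples of each other within a group (largest relative spread 1.8e-14), so they were read as fitted values, not counts. The edgeR quasi-likelihood test foreseen for counts could not be run, and the deposited test was used.

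From the fitted values, effective library sizes were derived (765 features of at least 300 fitted counts). Negative binomial dispersions were solved from the deposited likelihood ratios (28 of the 30 members; the others took that of features of like abundance), which gave the implied SE. The median biological coefficient of variation was 50.0%. The steps were tested on counts simulated with the solved dispersions, which cannot check those dispersions against the real counts. Floors cover counting error only. Positions count from 1; the table's starts count from 0. Described in full were called members, those over an exon or start site, and each locus's most abundant and nearest feature; in lists, the 3 calls with the smallest adjusted p (among GATA4 targets, 3 calls that the counts include are not reported here, and the 3 are taken from the rest), and marker lists by counts. Alternatives were another scale, a filter, F distributions, the trend dispersion and narrower loci. Promoter motifs were not analysed here. Scripts used pandas 2.3.3, scipy 1.17.1 and numpy 2.4.6 in Python 3.11.15.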

Additional observations from a re-analysis of the deposited data

How the results depend on the processing

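No paired analysis was possible because the sample columns hold fitted values without a spread between replicates, and for the same reason leaving out a replicate was not run. Of the 2 higher and 11 lower calls at the 3 loci, 1 higher and 9 lower were called among features of at least 20 fitted counts. The filter left out the others without a test, MSTRG.27735 (higher) and MSTRG.29815 and MSTRG.29820 (lower). With an F distribution of 10 residual degrees of freedom 1 higher (MSTRG.29831) and 1 lower (MSTRG.29822, adjusted p = 0.0428) were called, and with 4 there were 0 of either. At 4 no feature of the whole table passed (smallest adjusted p = 0.252), while by that F test an unadjusted p under 0.05 was reached by 2 members higher and 13 lower. Among all 34518 features it was reached by 529 higher and 1927 lower. With gene bodies only, 0 lower calls remained in the count, as no lower call lay in a body. Over all features the calls were 402 higher and 1605 lower, against 560 and 1199 with the median ratio centred at 1, 162 and 643 of 8176 features under the filter, 70 and 370 with 10 degrees of freedom, 0 and 0 with 4, and 605 and 1761 with the trend dispersion.

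The log2 ratio of the summed level of Zfpm2 was 4.90. It became 5.12 when centred, 8.20 in the body alone and -1.42 without MSTRG.29831. That of Gata4 was -1.25 and turned to 1.12 both within 50 kb and in the body alone, which drop the upstream features. That of Gata6 was -0.63, with -0.42 when centred, -0.42 without MSTRG.39504 and 1.18 in the body alone, a single feature. Centring turned MSTRG.27733 to 0.12 and MSTRG.29808 to 0.048, changed the lower calls of transcription factor partners to 2, against 4, and the higher calls of GATA4 targets to 3, against 1. Depth limits the scarce members: 15 of 30 lay under 20 fitted counts per library.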

Other observations

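Features beside the loci that the rule does not take were read as values only. Past the 3′ end of Zfpm2, MSTRG.29825 begins 0.335 kb beyond the gene and is listed on the plus strand. It stood at 0.660 CPM in FOG2_OE against 1.003 CPM in WT and was not called (log2 fold change -0.60 with implied SE 0.39, and adjusted p = 0.455, by the authors' deposited table). MSTRG.27713, in the gene body of Blk next to Gata4, stood at 75.6 CPM in FOG2_OE against 48.4 CPM in WT and was not called (log2 fold change 0.64 with implied SE 0.28, and adjusted p = 0.185, by the authors' deposited table). MSTRG.27644, 85.6 kb from the Gata4 start, was called lower there (log2 fold change -3.55, implied SE 1.32, adjusted p = 0.030). It was scarce, at 0.0083 CPM in FOG2_OE against 0.114 CPM in WT. Near it MSTRG.27712 (log2 fold change -0.87, adjusted p = 0.151) and MSTRG.27643 (log2 fold change 0.17, adjusted p = 0.937) were not called there. These features were named after their values were seen.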
